A study of Mus musculus with 28 samples.

Results

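This account compares the endoderm of the mouse stomach with that of the intestine at E11.5 (days of embryonic development), which are the sides of the boundary between stomach and duodenum. The arrays were chosen by their titles: 3 of stomach endoderm and 3 of intestinal endoderm, 6 of the 28 arrays in the series. Each sample was total RNA from organ domains dissected from 10 to 12 pooled embryos, and the endoderm was isolated by flow cytometry, in 3 biological replicates per organ. Biotin-labelled copies of the amplified RNA were hybridised to an Illumina MouseRef-8 v2 bead array, which reads each transcript as the brightness of a probe. The other 22 arrays hold the endoderm of esophagus, lung, liver and pancreas at E11.5 and the 3 germ layers at E8.25, and they entered the model to share its estimate of the spread. Stomach and intestine samples share stage and procedure and carry no treatment. The sources used here give no strain, reporter, allele or sex for the embryos, no sorting marker and no borders of the dissected domains.

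The gut tube is laid down as a sheet of endoderm that is divided along its length by transcription factors. In the mouse, Sox2 marks the foregut, including the stomach, and Cdx2 marks the intestine. Loss of Cdx2 from the endoderm is known to give an intestine with foregut features, and forced Sox2 in the intestine is known to give gastric features. At this stage both organs are simple tubes of dividing cells, and the mature products of the stomach glands and of the villi mostly appear later. Signals pass between the endoderm and its mesenchyme, among them the hedgehog ligands, which the endoderm secretes, and Wnt ligands.

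Values below are normalised intensities on the log2 scale, so that a difference of 1 is a 2-fold difference, and every difference is stomach minus intestine. A gene was called when limma's adjusted p was under 0.05 and the difference was at least 2-fold. Detection on an array means a probe brighter than 99% of that array's probes for sensory receptor genes, which were taken here as background. Where a probe was not detected on any array of its dimmer organ, the difference is given as "at least N-fold", with the detection limit in place of the dim value. Levels of different probes were not set against each other.

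Every one of the 6 arrays correlated most closely with another array of its own organ. The correlation over all genes tested was 0.963 to 0.995 within stomach and 0.967 to 0.993 within intestine, against 0.933 to 0.961 between the organs. Stomach 1 and intestine 3 stood apart from their fellows. The median standard deviation of a gene within stomach was 0.148, and 0.0693 without stomach 1. Within intestine it was 0.179, and 0.0827 without intestine 3. Stomach 1 reached a highest deposited intensity of only 13155, against 23764 to 33839 on the other arrays. Intestine 3 held 7931 values below 0 and 9664 detected probes, against 10843 to 11994 on the other arrays. Each call below was therefore repeated without these arrays, and genes that lost it are named as such.

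The labels were set against markers of each organ. The stomach markers Sox2 and Sox21 and the intestinal markers Cdx2, Isx, Vil1 and Lgals4 were called on the side of their organ. The other markers read here were not called. Foxq1, a forkhead factor of the gastric epithelium, read 7.99, 8.72 and 8.42 in stomach, against 8.96, 8.69 and 9.15 in intestine (log2 difference -0.55 ± 0.21 SE, adjusted p = 0.103). Cldn18, a claudin of stomach and lung, was detected on 2 of 3 stomach arrays and on 0 of 3 intestine arrays, where a difference has no exact size, and it was not called (adjusted p = 0.0177), though 2 of the alternative settings called it higher. Cdx1, the close relative of Cdx2, read 6.53, 6.49 and 6.33 in stomach, against 6.41, 6.69 and 7.13 in intestine. That is near the detection limit in both organs, and the groups overlapped (log2 difference -0.29 ± 0.38 SE, adjusted p = 0.737, 95% interval -1.08 to 0.50). Gkn1, a secreted product of gastric surface cells, and the intestinal markers Hnf4g, Cdh17 and Fabp2 were below the detection limit on all 6 arrays. Tff2, a gastric trefoil peptide, was detected on 0 of 3 stomach arrays and on 2 of 3 intestine arrays. Nkx6-3 was not analysed here.

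Of the 9651 genes tested, 138 were higher in stomach (1.43%) and 255 were lower (2.64%), together 4.07% of the genes. The median difference over all genes tested was 0.02. A gene was tested if detected on every array of at least 1 of 9 groups, so a list member could enter through the organ where it is bright. Of the genes called lower, 56 differed by more than 4-fold and 19 by more than 8-fold, and of those called higher, 16 differed by more than 4-fold and 5 by more than 8-fold. The dim organ was below the detection limit on all 3 arrays for 22 of the genes called higher and for 66 of those called lower. Without stomach 1 and intestine 3, 126 genes were higher (1.31%) and 255 lower (2.64%). The 3 stomach arrays lay entirely above the 3 intestine arrays for 1164 genes (12.1%) and entirely below them for 1303 (13.5%). Among called genes the arrays did not overlap for all 138 higher and for 254 of the 255 lower, so such separation adds little to a call. Of the genes called without the outlying arrays, 112 and 230 were the genes called with all 6 arrays, so that 26 of the 138 and 25 of the 255 lost their call.

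**Figure D1:**
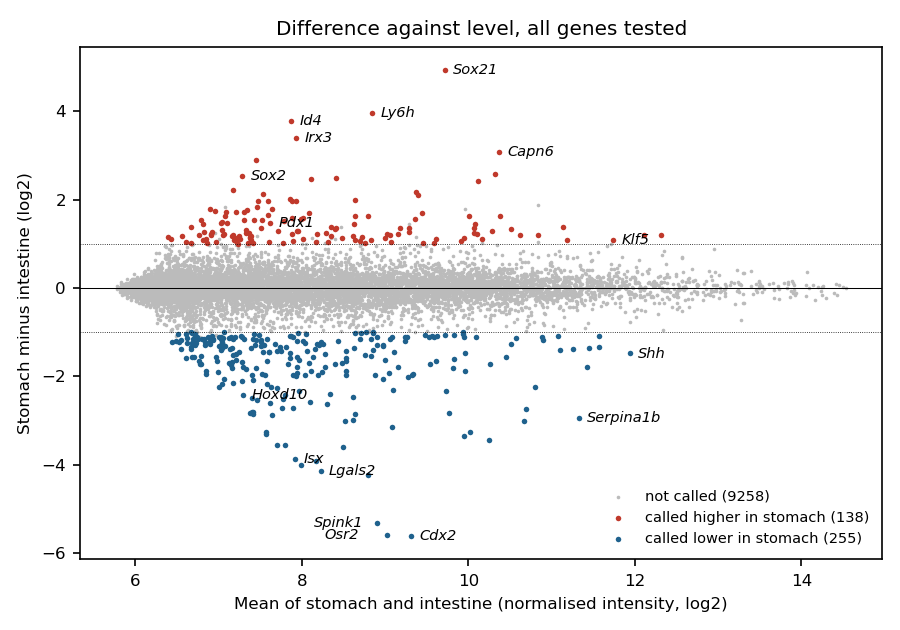
Difference between stomach and intestine (log2, vertical axis) against the mean level of both organs (normalised intensity, log2, horizontal axis), 1 point per gene tested. Red points are the 138 genes called higher in stomach and blue points the 255 called lower, dotted lines mark a 2-fold difference, and Cdx2, Osr2 and Spink1 lie farthest below 0 while Sox21 lies farthest above.

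The first genes described are the known regulators of either side. Cdx2, the homeobox factor that specifies intestinal endoderm, read 6.58, 6.44 and 6.51 in stomach, against 12.24, 12.13 and 11.99 in intestine. The stomach values lay just above the detection limit, and the gap to intestine was 48.8-fold (log2 difference -5.61 ± 0.30 SE, adjusted p = 1.2e-12). Sox21, a SoxB factor of the foregut epithelium, read 12.10, 12.32 and 12.13 in stomach, against 7.52, 7.14 and 7.10 in intestine. All 3 stomach arrays stood far above all 3 intestine arrays (log2 difference 4.93 ± 0.46 SE, adjusted p = 2.39e-08, 30.5-fold higher). Further probes of Sox21, not detected on any intestine array, differed by 2.32 and 0.88, so the 30.5-fold is the reading of the brightest probe. Sox2, its relative that specifies foregut endoderm, read 8.62, 8.55 and 8.48 in stomach, against 5.84, 6.08 and 6.14 in intestine. Its probe was detected on every stomach array and on 0 of 3 intestine arrays, so Sox2 was at least 4.08-fold higher in stomach (adjusted p = 9.47e-08).

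Of 30 gastric and foregut transcription factors tested, 11 were higher in stomach and 2 were lower, with a median difference of 0.21, against 1.43% and 2.64% of all genes and a median of 0.02. The counts were 11 higher and 1 lower without stomach 1 and intestine 3. Beside Sox2 and Sox21, the Iroquois homeobox factors Irx3 and Irx5 were among them. Irx3 read 9.91, 9.49 and 9.48 in stomach, against 6.20, 6.09 and 6.39 in intestine, which is at least 8.6-fold higher in stomach (adjusted p = 5.36e-13). Irx5 read 9.85, 8.67 and 8.18 in stomach, against 6.03, 5.97 and 6.0 in intestine, and the stomach arrays differed more among themselves, yet all lay above intestine (at least 5.2-fold higher, adjusted p = 4.67e-08). Of the 4 genes of the Irx family tested, these 2 were called, and another, Irx2, differed by 0.99 (adjusted p = 0.00154), just under 2-fold.

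Meis2, a TALE homeobox cofactor of Hox and Pbx proteins, read 11.23, 11.52 and 11.23 in stomach, against 8.67, 9.17 and 8.85 in intestine (log2 difference 2.43 ± 0.17 SE, adjusted p = 1.7e-10). Its relative Meis1 differed by 0.21 (adjusted p = 0.649). Osr1, a zinc finger factor of foregut and early mesoderm, was at least 2.5-fold higher in stomach (adjusted p = 2.43e-05). Foxa2, a pioneer factor of all endoderm, was 2.47-fold higher in stomach, where every array lay above every intestine array (adjusted p = 2.6e-05). Its paralogs differed by -0.37 (adjusted p = 0.665) for Foxa1 and -0.46 (adjusted p = 0.217) for Foxa3, neither called. Isl1, a LIM homeobox factor of pancreatic and pyloric development, was higher by 1.35 (adjusted p = 0.000105), and Spdef, an ETS factor of mucous cells, by 1.22 (adjusted p = 8.51e-09). Trp63, the p63 factor of stratified epithelium that also marks the forestomach, was at least 1.57-fold higher (adjusted p = 0.0224). Its call was lost without stomach 2, stomach 3 or intestine 2, where the fitted differences, which are no bounds, were 0.96, 0.91 and 0.94.

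Barx1, whose known role in the mouse stomach lies in the mesenchyme, read 7.17, 7.94 and 8.24 in stomach, against 6.10, 6.02 and 5.90 in intestine, which is at least 2.4-fold higher in stomach (adjusted p = 7.98e-08). It stands on the list of mesenchyme markers as well, whose summed levels are given further on. The members of the foregut list called lower in stomach were Tbx3, a T-box factor, and Hhex, a homeobox factor of liver and ventral pancreas. Tbx3 read 6.50, 6.40 and 6.31 in stomach, against 9.27, 9.20 and 8.91 in intestine (log2 difference -2.72 ± 0.14 SE, adjusted p = 6.9e-13). Hhex differed by -1.09 (adjusted p = 3.65e-05), and lost its call without stomach 1 and intestine 3, where the difference was -0.92, and also without intestine 3 alone, where it rounded to -1.0 and lay just under 2-fold.

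Of 26 intestinal transcription factors tested, 6 were lower in stomach and 3 were higher, with a median of -0.09, and without stomach 1 and intestine 3 the counts were 7 lower and 1 higher. With all arrays 34.6% were called, against 4.07% of all genes tested. Isx, an intestine-specific homeobox factor that acts in vitamin A metabolism, read 6.07, 5.97 and 5.93 in stomach, against 10.29, 9.67 and 9.59 in intestine. Stomach was below detection throughout, and Isx was at least 11.1-fold lower there (adjusted p = 4.17e-16). Nr5a2, a nuclear receptor of gut, liver and pancreas, was at least 5.41-fold lower in stomach (adjusted p = 1.08e-08). Evx1, an even-skipped homeobox factor, differed by -1.69 (adjusted p = 1.26e-07), and Nkx2-3, a homeobox factor known mainly from gut mesenchyme, by -2.08 (adjusted p = 1.7e-06).

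The Onecut factors went opposite ways across the boundary. Onecut2 read 9.26, 8.66 and 9.13 in stomach, against 10.97, 10.73 and 11 in intestine and was lower in stomach (log2 difference -1.88 ± 0.37 SE, adjusted p = 0.000712). Onecut3 read 7.56, 7.30 and 7.21 in stomach, against 6.43, 6.15 and 5.92 in intestine and was higher in stomach (log2 difference 1.19 ± 0.15 SE, adjusted p = 2.64e-06). Without stomach 1 and intestine 3 the difference of Onecut3 was 0.96, under the 2-fold minimum.

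The 3 intestinal-list factors higher in stomach were Pdx1, Onecut3 and Klf5. Pdx1, which marks the pancreas, duodenum and pyloric antrum, read 8.64, 8.20 and 8.23 in stomach, against 7.0, 6.94 and 6.72 in intestine. All 3 stomach arrays exceeded all 3 intestine arrays (log2 difference 1.47 ± 0.19 SE, adjusted p = 3.97e-06). Klf5, a Krüppel-like factor of dividing gut epithelium, read 12.13, 12.28 and 12.42 in stomach, against 11.31, 11.43 and 10.84 in intestine (log2 difference 1.09 ± 0.23 SE, adjusted p = 0.00172), and without stomach 1 and intestine 3 its difference of 0.98 lay just under 2-fold, as did the 0.91 without intestine 3 alone.

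Several general endoderm factors were not called. Hnf4a, a nuclear receptor of gut and liver, read 9.37, 9.05 and 9.09 in stomach, against 9.56, 9.33 and 8.77 in intestine, and the groups overlapped (log2 difference -0.05 ± 0.25 SE, adjusted p = 0.946, 95% interval -0.57 to 0.47). Gata4, a zinc finger factor of the posterior stomach and small intestine, differed by 0.11 (adjusted p = 0.818), with a 95% interval -0.28 to 0.50. Gata6 read 9.96, 10.53 and 10 in stomach, against 10.93, 11.01 and 10.88 in intestine, and Sox9, a factor of progenitor cells, read 7.66, 8.10 and 8.06 in stomach, against 8.72, 8.84 and 8.84 in intestine. The arrays of these last genes did not overlap, with stomach below intestine, but the differences of -0.78 (adjusted p = 0.000503) and -0.86 (adjusted p = 7.82e-05) fell short of 2-fold.

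Osr2, the odd-skipped relative of Osr1, was among the genes farthest apart, in the opposite direction to Osr1. It read 6.13, 6.26 and 6.30 in stomach, against 11.95, 12.01 and 11.52 in intestine, which is at least 43.6-fold lower in stomach (adjusted p = 2.68e-19). In the mouse Osr2 is known for its role in the palate and limb.

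**Figure D2:**
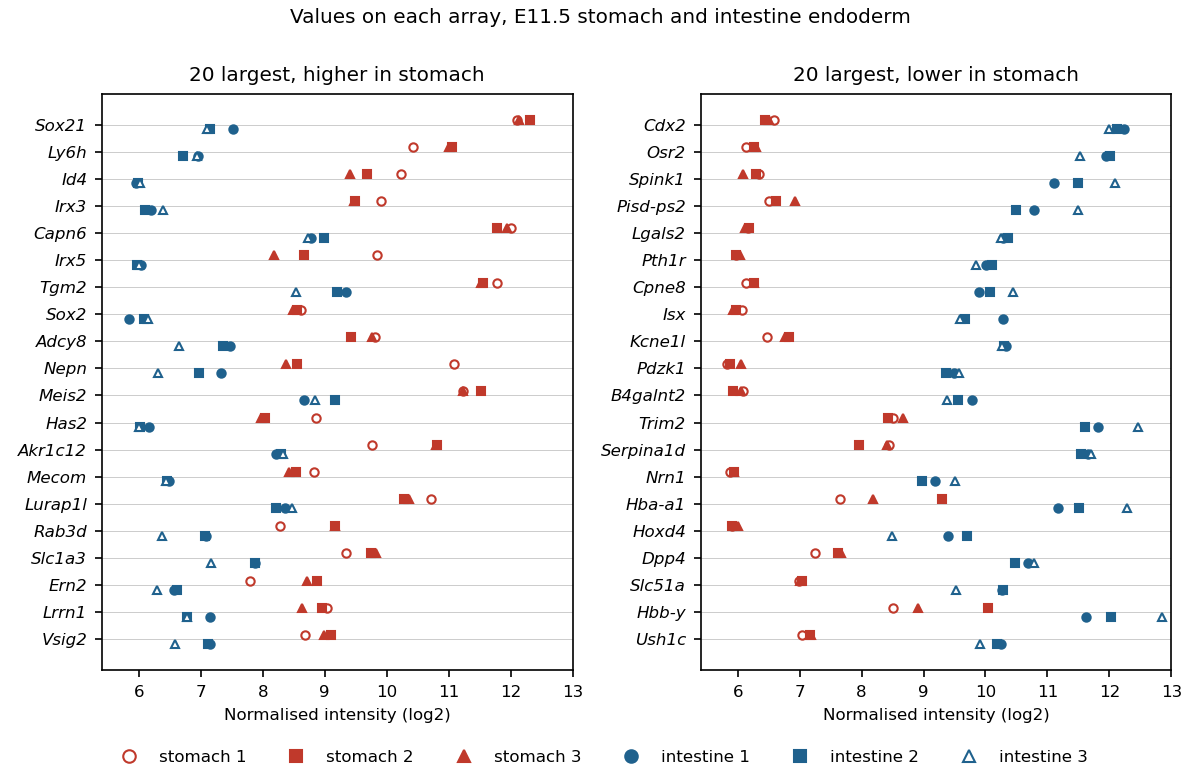
Normalised intensity (log2, horizontal axis) on each array for the 20 genes with the largest difference in each direction whose stomach and intestine arrays did not overlap, stomach in red above intestine in blue within each gene. Open symbols are stomach 1 and intestine 3, the arrays that stood apart, and for Nepn stomach 1, at 11.08, lies far above stomach 2 and 3, at 8.55 and 8.38.

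Outside the factors, the genes highest in stomach relative to intestine were of mixed function. Ly6h, a cell surface protein of the Ly6 family, read 10.43, 11.05 and 11 in stomach, against 6.95, 6.71 and 6.93 in intestine (log2 difference 3.96 ± 0.23 SE, adjusted p = 4.67e-12). Id4, a helix-loop-helix protein that blocks basic helix-loop-helix factors, read 10.23, 9.68 and 9.40 in stomach, against 5.95, 5.99 and 6.01 in intestine, which is at least 9.49-fold higher in stomach (adjusted p = 1.35e-12). Capn6, a calpain that lacks a catalytic cysteine, read 12.01, 11.78 and 11.95 in stomach, against 8.78, 8.99 and 8.73 in intestine (log2 difference 3.08 ± 0.22 SE, adjusted p = 1.61e-10). All 3 were named by a rule that asks for arrays without overlap.

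Genes of several kinds stood further down the ranking. Tgm2, a transglutaminase that crosslinks matrix proteins, was higher by 2.59 (adjusted p = 8.03e-08). Adcy8, an adenylyl cyclase, was higher by 2.50 (adjusted p = 5.1e-10). Has2, which makes hyaluronan, was at least 3.4-fold higher (adjusted p = 2.77e-07). Mecom, a zinc finger factor also known as Evi1, was higher by 2.14 (adjusted p = 1.8e-10), Slc1a3, a glutamate transporter, by 1.99 (adjusted p = 1.68e-05), and Ern2, an endoplasmic reticulum stress sensor of mucous epithelia, by 1.98 (adjusted p = 1.37e-08). Nepn, a leucine-rich proteoglycan, read 11.08, 8.55 and 8.38 in stomach, against 7.33, 6.97 and 6.31 in intestine, and stomach 1 lay far above its fellows. Without stomach 1 and intestine 3 its difference of 1.32 was not called. Akr1c12, an aldo-keto reductase, Lurap1l, Rab3d, a GTPase of secretory vesicles, Lrrn1, a leucine-rich repeat protein, and Vsig2, an immunoglobulin domain protein, were higher by 2.18, 2.10, 2.02, 1.97 and 1.97.

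Further genes called with all 6 arrays lost the call without stomach 1 and intestine 3. With all arrays Hnrnpa1, Kpna2, Ramp2 and Rgma were higher in stomach by 1.34, 1.31, 1.29 and 1.28, and Map1b was lower, at -1.59. Without the outlying arrays the differences of these genes were 1.46, 1.14, 0.73, 0.76 and -1.35, in the same order, where those above 2-fold missed on adjusted p. Hnrnpa1 and Map1b lost their calls in 11 and 8 of 23 alternative settings, for both also with the mean of the detected probes. A further probe of Map1b, detected on 3 stomach arrays and 1 intestine array, differed by 0.03.

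The genes lowest in stomach beside Cdx2 and Osr2 were of mixed function too. Spink1, a secreted protease inhibitor, read 6.34, 6.29 and 6.09 in stomach, against 11.11, 11.49 and 12.09 in intestine, which is at least 36.4-fold lower in stomach (adjusted p = 1.21e-11). Lgals2, a galectin of the gut epithelium, read 6.16, 6.18 and 6.11 in stomach, against 10.28, 10.37 and 10.25 in intestine. The intestine values lay close together and stomach was below detection throughout, and it was at least 15.2-fold lower in stomach (adjusted p = 1.28e-19). Pisd-ps2, a pseudogene whose probe may also read its parent gene, differed by -4.24 (adjusted p = 1.61e-11). Pth1r, the receptor for parathyroid hormone, was at least 12.2-fold lower, and Cpne8, a copine, at least 13.5-fold lower.

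Kcne1l, a relative of potassium channel subunits, was lower in stomach, at -3.61 (adjusted p = 6.27e-13), and so was Trim2, a ubiquitin ligase, at -3.44 (adjusted p = 5.65e-10). Nrn1, a protein of growing neurites, was at least 7.18-fold lower (adjusted p = 1.98e-15). Pdzk1, a scaffold of brush border transporters, was at least 8.57-fold lower in stomach, and B4galnt2, which adds terminal sugars to intestinal glycans, at least 9.18-fold lower. Slc51a, a subunit of the basolateral bile acid exporter, read 6.99, 7.04 and 7.01 in stomach, against 10.27, 10.29 and 9.52 in intestine (log2 difference -3.02 ± 0.17 SE, adjusted p = 3.46e-12). Ush1c, a scaffold of microvillar tips, read 7.03, 7.16 and 7.18 in stomach, against 10.25, 10.18 and 9.91 in intestine (log2 difference -2.98 ± 0.13 SE, adjusted p = 3.14e-14). Calml4, a calmodulin-like partner of that complex, was lower, at -2.71 (adjusted p = 3.01e-10), and Cdhr5, a protocadherin of the same complex, was at least 5.34-fold lower. Not every such gene was lower, since the related protocadherin Cdhr2 differed by -0.19 and was not called. Calml4, Sycn and Ddah1 were named after their values were seen. Sycn, a zymogen granule protein, was at least 5.53-fold lower in stomach (adjusted p = 1.1e-13), and Ddah1, which degrades dimethylarginine, read 7.92, 8.53 and 8.59 in stomach, against 11.34, 11.28 and 10.95 in intestine (log2 difference -2.84 ± 0.20 SE, adjusted p = 1.61e-10).

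Of 19 intestinal differentiation genes tested (of 42 with a probe), 9 were lower in stomach and 1 was higher, and the median was -0.96, against 0.02 over all genes. That is 52.6% called, against 4.07% of all genes tested. The filter could admit a gene through intestine alone, where it is bright, so this lean covers the tested genes alone. Dpp4, a brush border peptidase, read 7.24, 7.62 and 7.67 in stomach, against 10.68, 10.48 and 10.78 in intestine (log2 difference -3.14 ± 0.16 SE, adjusted p = 4.04e-13). Vil1, the actin bundling protein villin, read 6.14, 6.69 and 6.68 in stomach, against 8.57, 9.06 and 8.38 in intestine (log2 difference -2.17 ± 0.16 SE, adjusted p = 5.19e-10). Tff3, a trefoil peptide of goblet cells, was at least 3.37-fold lower in stomach (adjusted p = 2.17e-06), and Lgals4, an intestinal galectin, was lower, at -1.36 (adjusted p = 2.53e-05). The others called lower were Anpep, at -1.23, Krt20, at -1.63, Clca1, a goblet cell product that was at least 6.52-fold lower, Amn, which was at least 1.91-fold lower, and Cdhr5. Amn lost its call without intestine 2, where its fitted difference was under 2-fold. Tm4sf5, a tetraspanin-like membrane protein, was the member higher in stomach, at 1.0 (adjusted p = 3.88e-05). It lost that call under 8 of 23 alternative settings, among them the replicate block (adjusted p = 0.0836), the 6 arrays alone and the fits without stomach 2, stomach 3 or intestine 3, at 0.83, 0.90 and 0.86.

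The mature products of the stomach were for the most part not readable. Of 30 gastric differentiation genes with a probe, 11 were tested, and 1 was higher and 2 lower, with a median of -0.24. That is 27.3% called, against 4.07% of all genes tested. The counts were 1 higher and 3 lower without stomach 1 and intestine 3. Muc1, a membrane mucin, read 7.68, 8.43 and 8.46 in stomach, against 6.77, 6.68 and 6.53 in intestine (log2 difference 1.53 ± 0.19 SE, adjusted p = 2.3e-06). The genes on that list called lower were Upk1a, a uroplakin, at -1.96, and Onecut2, at -1.88. Tff1, a relative of Tff2, was not called, at a fitted -0.98, though 10 of 23 alternative settings called it lower. Gast, Atp4b and Pgc, which mark antral endocrine, parietal and chief cells, were below detection on all 6 arrays, and Muc5ac, the mucin of surface cells, was detected on 2 of 3 stomach arrays and on 0 of 3 intestine arrays.

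The lists of carriers and of liver genes also leaned to intestine. Of 20 lipid and vitamin carriers tested, 5 were lower in stomach and 0 higher, with a median of -0.20. That is 25% called, against 4.07% of all genes tested. Apoa1, the chief protein of high density lipoprotein, read 8.03, 8.87 and 8.81 in stomach, against 10.96, 11.04 and 10.68 in intestine (log2 difference -2.33 ± 0.22 SE, adjusted p = 2.23e-08). Rbp4, which carries retinol in plasma, was lower, at -2.0 (adjusted p = 0.000346), and so was Ttr, which carries thyroid hormone, at -1.37 (adjusted p = 0.0194). Fabp3, a fatty acid carrier, and Dgat2, which makes triglyceride, were the others, at -1.56 and -1.26. Ttr lost its call without stomach 1 and intestine 3, at -1.53, and without stomach 2, intestine 1 or intestine 2, at -1.28, -1.30 and -1.35. On the liver list 9 of 23 were lower and 0 higher (39.1% called), with a median of -0.33, and 7 were lower without stomach 1 and intestine 3. Among them were Afp at -1.96, Trf at -2.33 and the Serpina1 genes. Serpina1d and Serpina1b, antitrypsins whose transcripts are near identical, so that probes may read several of them, differed by -3.36 and -2.95. Alb, the defining product of hepatocytes, was below detection on all 6 arrays. Its probe was not detected on every array of any group, liver included, so this reading decides nothing about liver RNA. Stomach 1 read higher than its fellows for Afp, at 7.49 against 6.04 and 6.22, and for Rbp4, at 7.70 against 6.50 and 6.58.

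Iron handling genes were read as well. Slc40a1, the iron exporter ferroportin, read 9.63, 9.73 and 9.67 in stomach, against 12.06, 11.77 and 11.92 in intestine (log2 difference -2.24 ± 0.17 SE, adjusted p = 4.91e-10). Tfrc, the transferrin receptor, named after its value was seen, was lower in stomach, at -1.41 (adjusted p = 9.58e-08).

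Globin transcripts were brighter on the intestinal side. Of 8 erythroid markers tested, 4 were lower in stomach and 0 higher, with a median of -1.89. That is 50% called, against 4.07% of all genes tested. Hba-a1, a globin chain, read 7.65, 9.30 and 8.18 in stomach, against 11.17, 11.51 and 12.28 in intestine (log2 difference -3.27 ± 0.84 SE, adjusted p = 0.00966). The summed intensity of the 10 erythroid probes was 1261 to 2512 in stomach, against 7401 to 16257 in intestine. Of the 10 probes, 4 were detected on all stomach arrays and 5 on all intestine arrays, and Gata1, a defining factor of red cells, was below detection on all 6. The Gata1 probe was not detected on every array of any group, so this reading decides nothing about red cells. Without stomach 1 and intestine 3, Hba-a1, Hba-x and Hbb-y were no longer called, and the remaining call was Hbb-bh1 at -2.0. Hba-a1 also lost its call without stomach 1 alone, at -2.91, or intestine 3 alone, at -2.96, and Hbb-y without stomach 1, stomach 3 or intestine 3, at -2.69, -2.89 and -2.67. Gene copies of globin are near identical, and their probes may share signal. The part of red cell RNA in the other results was not tested.

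Of 21 mesenchyme markers tested, 3 were lower in stomach and 2 higher, with a median of -0.15. That is 23.8% called, against 4.07% of all genes tested. Acta2, the actin of smooth muscle, read 5.89, 6.90 and 6.74 in stomach, against 8.73, 9.89 and 8.46 in intestine (log2 difference -2.51 ± 0.43 SE, adjusted p = 0.000133), and Vim and Sparc were lower, at -1.20 and -1.16. Acta2 and Sparc rest on 1 probe each. The 3 further probes of Acta2 differed by -0.11, -0.06 and -0.68 and were not detected on any stomach array, and a further probe of Sparc, detected on all 6 arrays, differed by 0.01. With the mean of the detected probes of a symbol, Acta2 and Sparc were not called, at -0.84 and -0.57. Dcn, a matrix proteoglycan, read 7.82, 9.05 and 8.75 in stomach, against 6.74, 7.32 and 7.03 in intestine (log2 difference 1.52 ± 0.29 SE, adjusted p = 0.00059). Without stomach 1 and intestine 3, Vim and Sparc lost their calls, at -0.92 and -0.95, and Vim did so without stomach 1 alone, at -0.96. The summed intensity of the 25 mesenchyme probes was 2572 to 3453 in stomach, against 4018 to 4954 in intestine, and the part of these cells in any result was not tested. Of these probes 14 were below detection on every stomach array and 12 on every intestine array, among them Col1a2 and Prrx1 in both organs. The Col1a2 probe was not detected on every array of any other group either. None of the 8 mesothelial, 10 endothelial, 7 leukocyte or 8 enteric neural markers tested was called. With 4.07% of all genes called, lists this short may hold no call, so these counts say little. Of these, 4 mesothelial and 3 endothelial markers had all stomach arrays below all intestine arrays, against 13.5% of all genes tested. The reverse held for 1 mesothelial and 0 endothelial markers, against 12.1% of all genes. Mesothelial probes summed to 1343 to 1448 in stomach, against 1658 to 1933 in intestine, and enteric neural probes to 818 to 907 in stomach, against 983 to 1036 in intestine, so that neither sum overlapped. Endothelial probes summed to 1420 to 1965 in stomach, against 1263 to 2091 in intestine, and leukocyte probes to 716 to 840 in stomach, against 661 to 773 in intestine, and these overlapped. The part of mesothelial or neural cells in any result was not tested. Epithelial markers summed to 32190 to 36881 in stomach, against 27821 to 31189 in intestine, and 2 of 21 tested, Foxa2 and Ovol2, were higher in stomach. That is 9.52% called, against 4.07% of all genes tested. Ovol2, a zinc finger factor that keeps cells epithelial, was at 1.01 (adjusted p = 1.31e-06) and lay just under 2-fold without stomach 2, stomach 3, intestine 1 or intestine 2, at 0.91, 0.95, 1.0 and 0.98. In bulk samples, fewer cells of a type cannot be told apart from less RNA per cell.

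Hox genes, which pattern the body axis, were called on the intestinal side. Of 24 tested, 8 were lower in stomach and 0 higher. The lower calls were 4 of 12 in groups 1 to 5 (median -0.03) and 4 of 12 in groups 6 to 13 (median -0.69, or -0.42 with undetected genes at their bound). Either set had 33.3% called, against 4.07% of all genes tested. Hoxd4 read 5.91, 5.90 and 6.0 in stomach, against 9.40, 9.70 and 8.49 in intestine, which is at least 7.05-fold lower in stomach (adjusted p = 3.67e-10). Hoxd10 was at least 4.39-fold lower, Hoxd8 at least 2.4-fold and Hoxd3 at least 2.41-fold. Hoxb7 read 6.27, 6.63 and 6.63 in stomach, against 8.50, 8.86 and 8.89 in intestine (log2 difference -2.24 ± 0.18 SE, adjusted p = 1.24e-09), and Hoxb5 and Hoxa7 were lower, at -1.39 and -1.33.

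The 12 genes tested in groups 6 to 13 all had fitted differences below 0, between -2.42 and -0.07. Of these, 9 had all stomach arrays below all intestine arrays, against 13.5% of all genes. In these groups 24 genes had a probe, and the filter could admit a gene through intestine alone. The lean therefore covers the tested genes alone. Those left out were not detected on every array of any group. In groups 1 to 5, 4 genes lay wholly below intestine and 3 wholly above it. Hoxa5 read 8.09, 8.82 and 9.45 in stomach, against 8.58, 8.65 and 8.12 in intestine, with the groups overlapping (log2 difference 0.34 ± 0.38 SE, adjusted p = 0.696). Hoxa2 averaged 8.20 ± 0.05 in stomach and 7.23 ± 0.06 in intestine, with stomach above intestine on every array, and its difference of 0.97 (adjusted p = 0.000759) fell just short of 2-fold. It was called higher without stomach 1 and intestine 3, at 1.02. Hoxb3, the eighth gene called, read 6.78, 6.47 and 6.45 in stomach, against 7.24, 7.44 and 8.40 in intestine, and its difference without stomach 1 and intestine 3 was -0.88, under 2-fold, and without intestine 3 alone it was -0.78.

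**Figure D3:**
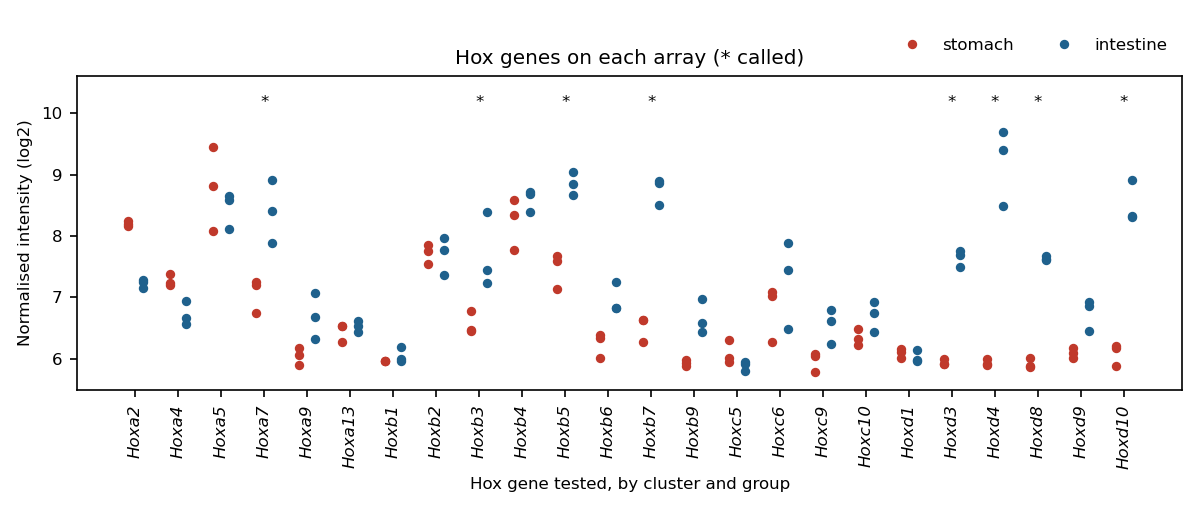
Normalised intensity (log2, vertical axis) of each Hox gene tested, by cluster and group, with 3 stomach arrays (red) left of 3 intestine arrays (blue) for each gene. An asterisk marks the 8 genes called lower in stomach, and Hoxd4, Hoxd8 and Hoxd10 read near 6 on every stomach array and above all stomach arrays on every intestine array.

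Signalling genes were called in small numbers. The share called was 7.14% for hedgehog, 8% for Wnt and 13.6% for Notch genes. It was 12.2% for BMP and TGF-beta, 5% for FGF and 13.3% for retinoic acid genes, against 4.07% of all genes tested. Of 14 hedgehog pathway genes tested, 1 was lower in stomach and 0 higher, with a median of 0.02. Shh, the ligand itself, read 10.81, 11.37 and 11.43 in stomach, against 12.47, 12.51 and 13.07 in intestine (log2 difference -1.48 ± 0.20 SE, adjusted p = 5.9e-06), so that the intestine arrays lay above all stomach arrays. Ihh, its paralog, read 8.83, 9.23 and 9.36 in stomach, against 8.78, 8.75 and 10.14 in intestine, and the groups overlapped (log2 difference -0.08 ± 0.35 SE, adjusted p = 0.927). Ptch1, the receptor, and Smo, which it restrains, differed by 0.16 (adjusted p = 0.353) and -0.01 (adjusted p = 0.978).

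Of 50 Wnt pathway genes, 2 were higher in stomach and 2 lower, with a median of -0.01. Wnt7b, a ligand of lung and pancreas endoderm, was at least 2.01-fold higher in stomach (adjusted p = 0.00142), but its other probe differed by 0.19 and the mean of its detected probes, at 0.82, was not called. Sp5, a target of the pathway, was higher by 1.26 (adjusted p = 0.00332). Wnt5a, a ligand that elongates the gut tube, read 6.74, 6.99 and 7.02 in stomach, against 8.91, 8.59 and 9.14 in intestine (log2 difference -1.96 ± 0.21 SE, adjusted p = 2.77e-07), and the receptor Fzd10 read 6.57, 6.55 and 6.65 in stomach, against 9.09, 9.20 and 8.75 in intestine (log2 difference -2.42 ± 0.27 SE, adjusted p = 3.2e-07). Further probes, not detected on any stomach array, differed by -0.6 for Wnt5a and by -0.69 and -0.38 for Fzd10. Sp5 lost its call without stomach 1 and intestine 3, and without intestine 3 alone, at 0.93. Axin2, a target of the pathway, was not called, at -0.23 (adjusted p = 0.369), and neither was the stem cell receptor Lgr5, at 0.64 (adjusted p = 0.0121). Porcn, which acylates Wnt ligands, and Lrig1, which restrains growth factor receptors, were named after their values were seen and were higher in stomach by 1.69 and 1.64.

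Of 22 Notch pathway genes, 2 were higher in stomach and 1 lower, with a median of 0.09. Nrarp, a target that feeds back on the pathway, read 8.15, 8.46 and 8.53 in stomach, against 6.58, 6.68 and 6.39 in intestine (log2 difference 1.83 ± 0.17 SE, adjusted p = 2.59e-08). Notch1, a receptor, read 9.34, 8.83 and 8.62 in stomach, against 7.46, 7.31 and 6.96 in intestine (log2 difference 1.69 ± 0.28 SE, adjusted p = 8.9e-05). Hes1 and Dll1, a target and a ligand, differed by 0.49 (adjusted p = 0.0552) and 0.71 (adjusted p = 0.00158), and Dlk1, a ligand relative, was lower, at -1.54 (adjusted p = 0.000183) and lost that call without stomach 1 and intestine 3.

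In the BMP and TGF-beta list, 3 of 41 were higher and 2 lower, with a median of 0.05. The higher genes were Id4, Id1 and Fstl1, and the lower ones were Tgfb2, a ligand, at -1.70, and Id2, at -1.57. The Id genes, targets of BMP signalling, thus went opposite ways, Id4 and Id1 above intestine and Id2 below it. Id1 lost its call without stomach 1 and intestine 3, at 0.80, and without intestine 3 alone, at 0.99. Bmp4 read 6.32, 6.80 and 6.82 in stomach, against 7.27, 7.97 and 7.57 in intestine and was not called (log2 difference -0.96 ± 0.21 SE, adjusted p = 0.00247). Among 20 FGF pathway genes, Klb, the co-receptor of hormone-like FGFs, was at least 1.63-fold lower in stomach and 0 were higher (median 0.09). Among 15 retinoic acid genes the 2 lower calls were the carriers Rbp4 and Ttr, with a median of 0.19.

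Hormone genes were for the most part near background. Of 18 hormone and endocrine lineage genes, 1 was higher, Isl1, and 1 lower, with a median of 0.09. Together these were 11.1% of the list, against 4.07% of all genes tested. The lower gene was Sct, which encodes secretin, the duodenal hormone. Sct read 7.03, 6.83 and 7.09 in stomach, against 10.01, 10.14 and 8.70 in intestine (log2 difference -2.63 ± 0.38 SE, adjusted p = 1.45e-05). Chga, a marker of endocrine granules, and Neurog3, the factor that starts the lineage, were below detection on all 6 arrays. Pyy, a gut peptide, was detected on 3 of 3 stomach arrays and 0 of 3 intestine arrays, where a difference has no exact size, and it was not called (adjusted p = 0.00114), though 2 of the alternative settings called it higher.

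**Figure D4:**
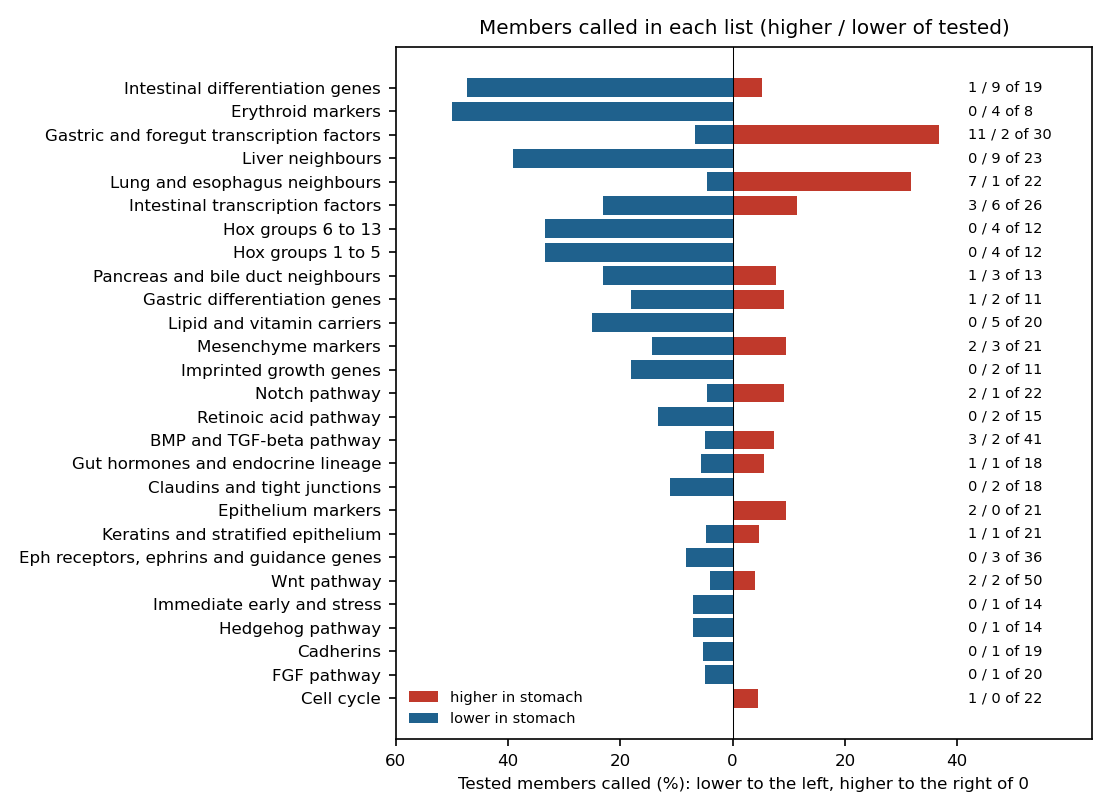
Share of tested members called in each list that had at least 1 call (percent, horizontal axis), higher in stomach to the right in red and lower to the left in blue, with the counts at the right of each bar. Over all genes tested the shares were 1.43% higher and 2.64% lower, and gastric and foregut transcription factors lean to the right while intestinal differentiation, erythroid, liver and Hox genes lean to the left.

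Calls in the remaining lists were spread over several gene families. The share called was 5.26% for cadherins and 4.55% for the cell cycle list, near the 4.07% of all genes tested. It was 8.33% for guidance genes, 9.52% for keratins and 11.1% for tight junction genes. Among 18 claudins and tight junction genes, Cldn2 and Cldn11 were lower in stomach, and among 36 Eph receptors and guidance genes, Unc5c, Sema4g and Sema5a were, with medians of -0.02 and 0.02. Unc5c lost its call without stomach 1 and intestine 3, at -0.89. Among 19 cadherins, Cdhr5 was the single gene called, and among 21 keratins and genes of stratified epithelium, Trp63 was higher and Krt20 lower. Of 22 genes of the lung and esophagus list, 7 were higher in stomach and 1, Id2, was lower, with a median of 0.13, and 5 of the 7 are also on the foregut list. Of 13 pancreas and bile duct genes, Pdx1 was higher and Nr5a2, Pnliprp1 and Dlk1 were lower, and Ptf1a, which specifies the pancreas, was below detection on all 6 arrays. Of 11 imprinted growth genes, Dlk1 and Igf2r were lower. Called shares were 36.4% for the lung and esophagus list, 30.8% for the pancreas list and 18.2% for imprinted genes, against 4.07% of all genes. The cell cycle list had 1 of 22 called, Cdca8 at 1.18, with a median of 0.39 over its members. Egr1, an immediate early gene, read 7.32, 6.93 and 7.93 in stomach, against 11.09, 10.36 and 8.10 in intestine (log2 difference -2.46 ± 0.71 SE, adjusted p = 0.0249), with wide spread among intestine arrays. Its call was lost without stomach 1, stomach 2, intestine 1 or intestine 2, at -2.42, -2.23, -1.84 and -2.20.

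The levels of these genes in the other organs of E11.5 place the boundary among its neighbours. Comparisons with those organs share the stomach or intestine arrays, so levels are given side by side, as mean ± SD over 3 arrays (4 for pancreas). Sox2 averaged 8.55 ± 0.07 in stomach, 9.39 ± 0.49 in esophagus, 7.54 ± 0.35 in lung and 6.02 ± 0.16 in intestine. Sox21 averaged 12.18 ± 0.12 in stomach, 12.81 ± 0.05 in esophagus and 7.25 ± 0.23 in intestine. Both had their highest mean in esophagus and were dim in pancreas and liver.

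Irx3 averaged 9.63 ± 0.24 in stomach and 11.90 ± 0.05 in lung. Meis2 was bright in stomach, at 11.33 ± 0.17, in esophagus, at 11.48 ± 0.18, and in pancreas, at 11.27 ± 0.29, and dimmer in intestine, at 8.90 ± 0.25. Id4 and Barx1 had their highest mean in stomach, at 9.77 ± 0.42 and 7.78 ± 0.55, where the next organ was esophagus for Id4, at 7.55 ± 0.17. Pdx1 was brightest in pancreas, at 10.47 ± 0.52, and stomach, at 8.35 ± 0.25, lay between pancreas and intestine.

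Cdx2 and Isx had a single bright organ among the 6. Cdx2 averaged 12.12 ± 0.13 in intestine and at most 6.69 in any other organ, and Isx 9.85 ± 0.38 and at most 5.99. Osr2 was also read in esophagus, at 9.49 ± 0.13, against 6.23 ± 0.09 in stomach and 11.82 ± 0.27 in intestine. Onecut2 averaged 9.02 ± 0.32 in stomach, 10.25 ± 0.50 in liver and 10.90 ± 0.15 in intestine. By highest mean, 53 of the 138 genes called higher had their maximum in stomach and 43 in esophagus, and 156 of the 255 called lower had it in intestine and 55 in liver. These counts are a description, since the call itself puts stomach above intestine or below it.

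**Figure D5:**
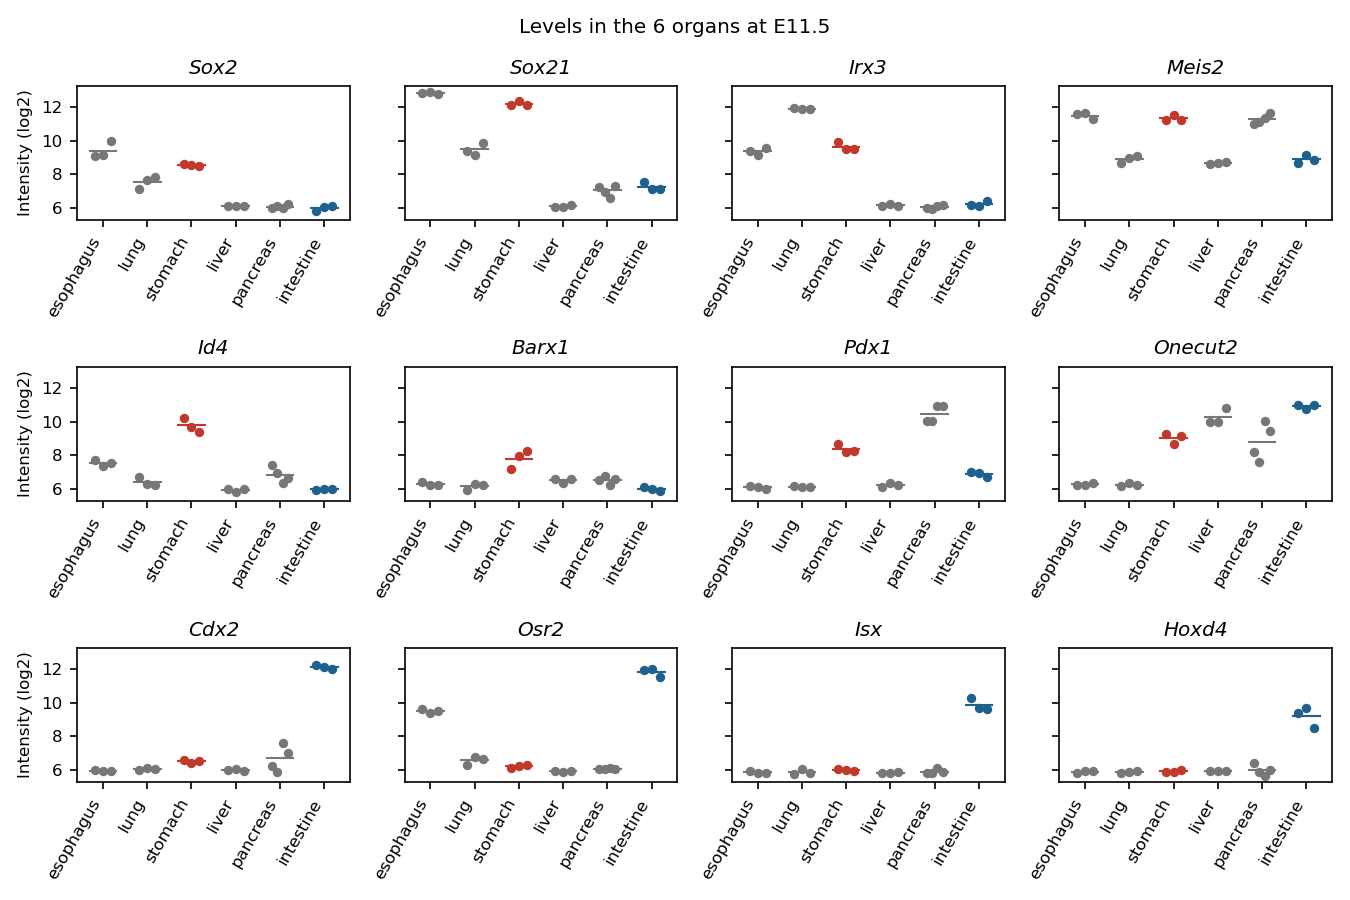
Normalised intensity (log2, vertical axis, shared scale) of 12 genes on each array of 6 organs at E11.5, with the line at the mean of each organ, stomach in red and intestine in blue. Sox2 and Sox21 are bright in esophagus and stomach and dim in intestine, and Cdx2 and Isx are bright in intestine.

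Promoter sequence was read for a few genes that carry the comparison, as a description of where letters known from factors of the gut lie. The 250 bases before the start of each gene, from RefSeq on the GRCm38.p6 build, were searched on both strands for CATAAA (CDX factors), GTTAAT (HNF1), CAAAGT (HNF4), AGATAA (factors of the GATA family) and ACAATG (SOX), and the capitals below mark the matches. The 5 motifs do not overlap one another in the sequences shown. Sox21 and Cdx2 stand for the factors of either side, Lgals2 holds 4 of the motifs, and Hoxd4 has a CDX motif near its start.
Sox21, chr14:118237031-118237280, minus strand: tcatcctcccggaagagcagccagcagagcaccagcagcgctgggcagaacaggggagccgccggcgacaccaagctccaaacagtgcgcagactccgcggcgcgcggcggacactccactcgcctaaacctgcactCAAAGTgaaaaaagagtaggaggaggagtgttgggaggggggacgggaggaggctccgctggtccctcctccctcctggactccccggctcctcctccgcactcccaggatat
Cdx2, chr5:147307250-147307499, minus strand: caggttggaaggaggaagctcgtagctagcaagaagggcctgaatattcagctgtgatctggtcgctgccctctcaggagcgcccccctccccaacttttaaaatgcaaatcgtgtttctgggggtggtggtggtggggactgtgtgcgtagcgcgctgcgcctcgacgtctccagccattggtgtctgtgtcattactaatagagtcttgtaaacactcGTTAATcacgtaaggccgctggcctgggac
Lgals2, chr15:78855530-78855779, minus strand: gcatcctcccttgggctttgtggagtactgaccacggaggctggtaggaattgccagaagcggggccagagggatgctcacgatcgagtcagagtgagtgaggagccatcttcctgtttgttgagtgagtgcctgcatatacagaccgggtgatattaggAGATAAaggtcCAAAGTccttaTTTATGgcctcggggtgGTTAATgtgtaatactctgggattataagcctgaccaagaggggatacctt
Hoxd4, chr2:74721728-74721977, plus strand: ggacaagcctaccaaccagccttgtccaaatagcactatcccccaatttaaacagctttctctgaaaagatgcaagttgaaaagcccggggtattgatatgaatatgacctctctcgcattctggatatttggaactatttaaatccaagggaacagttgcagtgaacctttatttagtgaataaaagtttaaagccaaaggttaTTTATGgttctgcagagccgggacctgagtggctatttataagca
Counted from the gene start, the CDX match begins at -68 in Lgals2 and at -45 in Hoxd4. CATAAA was in 5.88% of the promoters of genes called higher in stomach (102 with a sequence) and in 11.4% of those called lower (201), against 5.74% of all tested genes with one (7802). GTTAAT was in 1.96%, 9.45% and 4.09% of the same sets, in that order. AGATAA was in 3.92%, 5.97% and 5.79%, ACAATG in 3.92%, 5.97% and 5.72%, and CAAAGT in 10.8%, 13.9% and 10.5%. The motifs were chosen after the values were seen, and a match of letters is not a site that a factor binds.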

How the data were processed

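Total RNA of 28 samples was read on Illumina MouseRef-8 v2 bead arrays. The values used are the intensities of 25697 probes that the authors deposited. BeadStudio is named, without version or role, per the submitters' processing notes, and the sources used here do not state any scaling or background correction. The intensities are linear by their range, and 7 arrays hold values below 0. A further table of 112 columns could not be tied to samples and was not used. It holds the detection p-values, which is why detection was set here by 1362 sensory receptor probes.

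Intensities were corrected by normexp without controls (offset 50), quantile normalized over 28 arrays and set to log2. A probe was detected above the 99th percentile of the receptor probes. For each of 16593 symbols, from 23978 probes with a single symbol, the brightest probe by mean stood for the gene, and 9651 genes were tested because they were detected on every array of at least 1 of 9 groups. Differences were tested with R 4.3.3, statmod 1.5.0 and limma 3.58.1, with 9 group means and Benjamini-Hochberg adjustment over all genes, and the pipeline was tested on simulated data. Precision is limited by the 3 arrays per organ.

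Replicate numbers pair nothing in the labels, and the deviations of same-numbered stomach and intestine arrays correlated at -0.0509, 0.299 and -0.230. Genes were named as the 20 largest differences in each direction without overlap of the arrays, list members, up to 5 per direction whose call was lost without stomach 1 and intestine 3, and up to 5 per direction in families of transcription factors and solute carriers, and others were named after their values were seen. The organ means, motifs and lists, and the members themselves, were chosen with earlier results of these data known. The alternatives covered background, normalization, filters, the model and leaving out arrays.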

Additional observations from a re-analysis of the deposited data

How the results depend on the processing

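Against 138 genes higher in stomach and 255 lower, most alternatives kept both counts within 1.5 times. Skipping normexp for a floor of 16 gave 251 higher and 381 lower, and an offset of 16 gave 213 higher. The rule for a call moved the counts too, to 458 higher and 612 lower without a minimum fold and to 31 higher and 87 lower when each gene was tested against a 2-fold change. Without normalization between arrays, 109 were higher and 295 lower, and the median of all genes moved to -0.087. Weighting the arrays gave 174 and 268, and blocking on the intensity class gave 174 and 263. The causes of these moves were not tested.

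Leaving out each array in turn gave 131 to 150 genes higher and 254 to 266 lower, and 96 of the 138 and 208 of the 255 were called in all 6 such fits. The replicate block gave 143 higher and 244 lower, so the pairing of the numbers moved neither count by over 1.5 times. Of 125 called genes that the naming rule or the text selected, 98 kept the call in all 23 settings and 27 lost it in at least 1, and 0 changed direction. These 23 settings leave out the changed rules for a call. The test against a 2-fold change kept 31 of the 138 and 87 of the 255.

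Limits are the 3 arrays per organ and probes near background in the dim organ, where only a bound is known. A further probe was counted where it was detected on all arrays of stomach or on all arrays of intestine. Of 95 called genes with such a probe, 117 of the 119 further probes had the same sign. For a probe detected in the brighter organ alone, this filter largely sets the sign. Probes that missed the filter were left out, and a shared sign says nothing about size. The count therefore does not decide whether further probes bear out a call.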
